A study of Sus scrofa with 3 samples.

Results

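miR-486 was followed in small RNA libraries of porcine psoas major, a muscle of the loin. Its members were every known miRNA named miR-486, whatever the species prefix and arm, and 6 such names were found among 1162 known miRNA names. The prefix ssc marks a miRNA of the pig, and ssc-miR-486 held almost all of the reads. The prefix mml marks the macaque, and under mml-miR-486-5p the files list a longer form of the same miRNA that ends in added bases and did not map to the pig genome. The other 4 names were hsa-miR-486-5p (human), ssc-mir-486-2-p3 (the opposite arm of the pig hairpin), mmu-miR-486-5p (mouse) and cgr-miR-486-5p (Chinese hamster). All 6 were listed at 63 and 98 d, and 4 at 161 d.

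The libraries came from castrated male pigs of a Landrace, Large White and Duroc cross aged 63, 98 or 161 d. No treatment was compared. The feed was changed as the pigs gained weight, so that age, body weight and diet cannot be told apart. Each library held the combined RNA of 6 pigs and stood alone for its age, so that no replicate showed the spread between pigs. The totals of the files were 1464699, 2418187 and 2242716 miRNA reads, in order of age. Levels are given as RPM, the reads per 1000000 of that total, and 3 counts, taken as the smallest detectable amount, equalled 2.05, 1.24 and 1.34 RPM. The 95% intervals given with shares (Wilson) and ratios (Clopper-Pearson) cover counting error only and compare libraries, not ages.

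A miRNA is a short RNA cut from a hairpin precursor. It pairs with messenger RNAs mainly through bases 2 to 8 of its 5′ end, the seed, and lowers their translation or stability. miR-486 is known for high levels in skeletal and heart muscle and in red blood cells. After cutting, enzymes may trim the 3′ end of a miRNA or add bases to it that the gene does not encode, and such length forms are called isomiRs. Bases added in this way are often A or U, which is written as T in sequenced DNA.

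The representative reads of 4 names are shown because the first 3 differ at their 3′ end and not in their seed, while the last comes from the opposite arm. Capitals mark bases 2 to 8, and all sequences run 5′ to 3′ as listed in the files.
ssc-miR-486: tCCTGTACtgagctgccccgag
mml-miR-486-5p: tCCTGTACtgagctgccccgagtt
hsa-miR-486-5p: tCCTGTACtgagctgccccgagc
ssc-mir-486-2-p3: cGGGCCAGctcagtacccggcgt

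The first 3 names shared the seed CCTGTAC, and no other miRNA carried it among the 1162 known names. The mature read of ssc-miR-486 was 22 nt long. The mml-miR-486-5p read contained it whole and continued for 2 bases to 24 nt, and the hsa-miR-486-5p read continued for 1 base to 23 nt. The opposite arm, 23 nt long, had another seed.

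The added bases can be read against the hairpins that the files list. In these 30-base windows the lower case is the mature sequence and the capitals are the bases that follow it in the precursor.
ssc-mir-486-1: tcctgtactgagctgccccgagGCCCTCAC
mml-mir-486: tcctgtactgagctgccccgagCTGGGCAG

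The pig precursor continues with GC and the macaque precursor with CT, while the longer read ends in TT. Counted from 1 at the 5′ end of the read, and with the precursor's base first, the mml-miR-486-5p read differed from the pig hairpins by G23T and C24T and from the macaque hairpin by C23T alone. Its last base was thus the only added base that fitted the macaque precursor, and neither added base fitted that of the pig. The hsa-miR-486-5p read differed from the pig hairpin by G23C and from the human hairpin at no base. The opposite-arm read differed from the pig hairpin it is named after, ssc-mir-486-2, by C23T, its last base. From ssc-mir-486-1 it differed at 9 bases. These 3 minor forms therefore carried their differences from ssc-mir-486-2 at the 3′ end.

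In the pig genome the 2 porcine hairpins, ssc-mir-486-1 and ssc-mir-486-2, overlapped and were counted at 1 place, chr17:12191209-12191345 on the minus strand. The files name no assembly. The numbers of their sequence records are those of the Sscrofa10.2 assembly. In the RefSeq gene table of a later assembly, Sscrofa11.1, MIR486-1 lies within the span of ANK1, the gene of ankyrin 1, a protein that ties membranes to the cell skeleton in red blood cells and muscle. Its nearest other genes there are NKX6-3 and GPAT4. That table gives spans only, so that exon or intron was not assigned. The mml-miR-486-5p read has no pig coordinates.

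ssc-miR-486 was among the most abundant miRNAs of the muscle at every age. The youngest pigs (63 d) gave 57388 reads, those of 98 d 93531 and those of 161 d 91747. This was 3.92% (3.89 to 3.95), 3.87% (3.84 to 3.89) and 4.09% (4.07 to 4.12) of the reads of their libraries. Among all known names it ranked 4th, 5th and 3rd when the reads of a name were summed over its hairpins, and 2nd, 4th and 3rd when 1 hairpin per name was counted, a choice added after the data were seen. The names above it only in the sum were ssc-let-7a and ssc-miR-378 at 63 d and ssc-let-7a at 98 d. The first place belonged at each age to ssc-miR-133a-3p, a miRNA of striated muscle, with 11.0, 9.35 and 10.7 reads for each read of ssc-miR-486.

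Close neighbours in rank differed little from it. At 63 d it stood between ssc-let-7a (42404 RPM) and ssc-miR-26a (35532), itself at 39181. At 98 d it stood at 38678, between ssc-let-7a (40469) and ssc-miR-1 (31642). At 161 d it stood at 40909, below ssc-miR-26a (46000) and directly above ssc-miR-10b (40837), which had 0.998 reads for each read of ssc-miR-486. The order of these last 2 cannot be told at this depth, because the interval of ssc-miR-486 ran from 40650 to 41169 RPM. The neighbours given are porcine names. A name of another species, aja-miR-22, had 91477 reads at 161 d beside 91747 of ssc-miR-486, and their order cannot be told either.

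The other names were far below it. mml-miR-486-5p had 666, 898 and 787 reads in order of age. Of the last, 2 belonged to another, 21 nt read that mapped to chromosome 15 with the difference G9A. hsa-miR-486-5p had 140, 162 and 132 reads. ssc-mir-486-2-p3 had 20, 60 and 98 reads. mmu-miR-486-5p and cgr-miR-486-5p shared a single 26 nt read with 4 bases before the mature sequence. Each name had 1 read at 63 d and 0.5 at 98 d, and neither was listed at 161 d. Of all reads under a miR-486 name, ssc-miR-486 held 98.6%, 98.8% and 98.9%, and mml-miR-486-5p 1.14%, 0.949% and 0.848%.

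**Figure D1:**
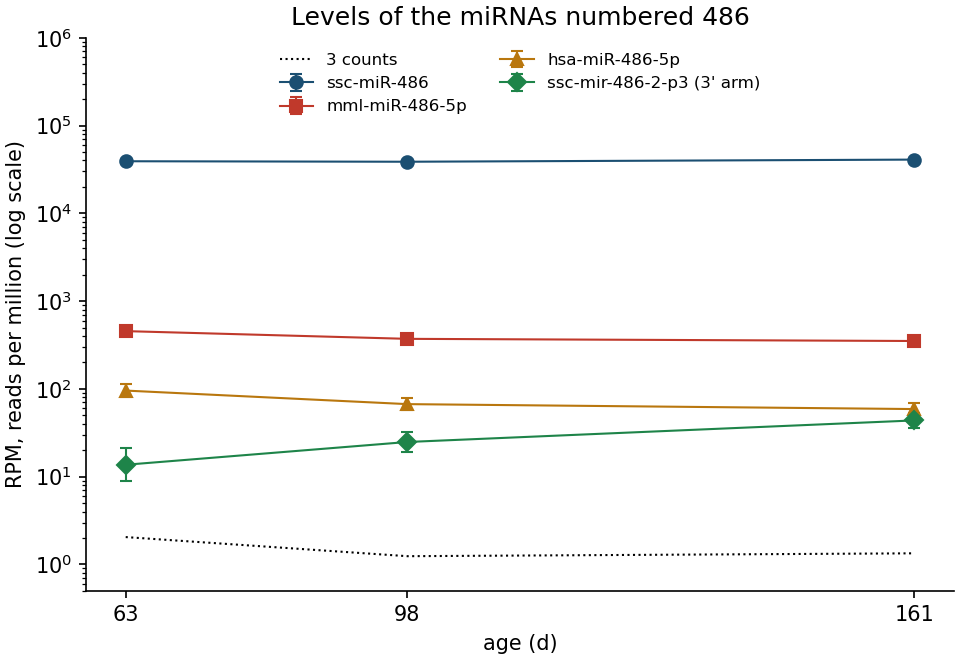
RPM (log scale) of 4 miR-486 names against the age of the pigs, 1 library per age, with 95% Wilson intervals that cover counting error only; the dotted line is 3 counts. ssc-miR-486 lay between 38678 and 40909, mml-miR-486-5p between 351 and 455, and the opposite arm went from 13.7 at 63 d to 43.7 at 161 d.

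Between the libraries the level of ssc-miR-486 moved little. Set against the 63 d library, its RPM were 0.987 times as many at 98 d (0.977 to 0.998) and 1.04 times as many at 161 d (1.03 to 1.06). The step between the 2 later libraries was 1.06 (1.05 to 1.07). Each interval left out 1 when counting error alone was considered, and no ratio was near 2-fold. The direction depended on the scaling: over the 5 other scalings the first ratio ran from 0.875 to 1.45, the ratio of 161 to 63 d from 1.00 to 1.28, and the step between the later libraries from 0.884 to 1.34. No direction with age can therefore be given.

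Most other names moved more on this scale. Of the 495 known names with a mean of at least 10 reads, 18.6% were past 2-fold from 63 to 98 d in either direction. The share was 20.6% from 98 to 161 d and 28.5% from 63 to 161 d. Names of the same number from different species were counted apart. From 63 to 98 d eca-miR-380 had a log2 ratio of -8.87 and mml-miR-380-3p one of 8.54. The shares may thus include reads listed under another name, which was not tested. Of the 4 miR-486 names among the 495, none was past 2-fold in the first 2 pairs on this scale. The opposite arm was near the limit there, at log2 ratios of 0.86 and 0.82. Clean reads shift all log2 ratios of the first pair by 0.56, and the factors of the study shift those of the second by 0.31. Either shift puts this arm past 2-fold. In the third pair 1 was past it, the opposite arm. Only 9, 50 and 28 of the 495 names had a log2 ratio closer to 0 than ssc-miR-486 in the 3 pairs. These counts hold for the total of each file as scale and were not made with the other scalings. Relative to the median of all names, which was at a log2 ratio of 0.18, -0.28 and -0.11, ssc-miR-486 stood at -0.20, 0.36 and 0.18.

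Among 59 porcine names with at least 1000 reads in every library, ssc-miR-486 had the smallest span between its highest and lowest level, 1.06-fold. The median span of these names was 1.54-fold and the largest, of ssc-miR-140-3p, 3.06-fold. This place depended on the scaling: over the 5 other scalings its span was 1.09-fold to 1.45-fold and it ranked between 2nd and 23rd from the smallest. The 5 names whose levels over the 3 libraries lay nearest to those of ssc-miR-486 were ssc-miR-27a, ssc-miR-125a, ssc-miR-151-3p, ssc-miR-27b-3p and ssc-miR-199a-3p. Their distances, on centred log2 levels, were 0.07, 0.13, 0.15, 0.16 and 0.18 among 58 candidates. The nearest, ssc-miR-27a, had 703, 733 and 784 RPM. With 3 points per name this is a description only.

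mml-miR-486-5p, whose representative read has the TT end, was lower at the later ages on this scale. That read made up 66.4%, 59.4% and 51.1% of the reads of the name in order of age. The level of the whole name was 455 (421 to 491), 371 (348 to 396) and 351 (327 to 376) RPM. The 63 d library was above both others, and the intervals of 98 and 161 d overlapped. Against 63 d the ratio was 0.817 at 98 d (0.738 to 0.904) and 0.772 at 161 d (0.695 to 0.857), and the step between the later libraries was 0.945 (0.858 to 1.04). The scaling changed the direction of this name as well. Clean reads gave 1.20 from 63 to 98 d. The factors of the study, TMM and median of ratios gave 1.12 to 1.20 from 98 to 161 d. From 63 to 161 d every scaling tried gave a ratio below 1.

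A ratio within a library needs no scaling between libraries. mml-miR-486-5p had 1.16%, 0.960% and 0.858% of the reads of ssc-miR-486 in order of age, or 1 read for 86.2, 104 and 117 reads. As a share of both names together this was 1.15% (1.06 to 1.24), 0.951% (0.891 to 1.01) and 0.850% (0.793 to 0.912). The 63 d share lay above the other 2 intervals. The ratio at 161 d was 0.739 of that at 63 d (0.666 to 0.821), at 98 d 0.827 of that at 63 d (0.748 to 0.916), and at 161 d 0.893 of that at 98 d (0.811 to 0.984). The order 63, 98, 161 d was the same when copies of the 2 representative reads were compared, at 1.37%, 1.02% and 0.785%. Whether these differences exceed the spread between pools of pigs was not tested.

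hsa-miR-486-5p, whose representative read has 1 added C, was also highest at 63 d relative to ssc-miR-486. That read made up 63.6%, 53.1% and 65.2% of the reads of the name in order of age. The whole name had 0.244%, 0.173% and 0.144% of the reads of ssc-miR-486 at 63, 98 and 161 d. As a share of both names these were 0.243% (0.206 to 0.287), 0.173% (0.148 to 0.202) and 0.144% (0.121 to 0.170). The 63 d interval was above the other 2, which overlapped. Copies of the representative reads gave 0.277%, 0.164% and 0.168%, so that the order of the 2 later ages depended on what was counted.

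The opposite arm went the other way. ssc-mir-486-2-p3 is the strand that is usually discarded when the hairpin is cut. Its level was 13.7 (8.84 to 21.1), 24.8 (19.3 to 31.9) and 43.7 (35.9 to 53.2) RPM in order of age. Against 63 d the ratio was 1.82 at 98 d (1.08 to 3.18) and 3.20 at 161 d (1.96 to 5.47), and the step between the later libraries was 1.76 (1.26 to 2.47). At least 2-fold higher levels from 63 to 161 d were seen in 10.9% of the 495 names. For each read of the opposite arm there were 2869, 1559 and 936 reads of ssc-miR-486. The ratio of the arms at 161 d was 3.06 times that at 63 d (1.88 to 5.24), and the 63 d value rested on 20 reads. Of 50 porcine pairs of arms with a mean of at least 10 reads on both sides, 11 (22%) had a ratio of arms that differed past 2-fold between 63 and 161 d, 4 of them towards the 3′ arm, and that of miR-486 was the 2nd largest in that direction.

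**Figure D2:**
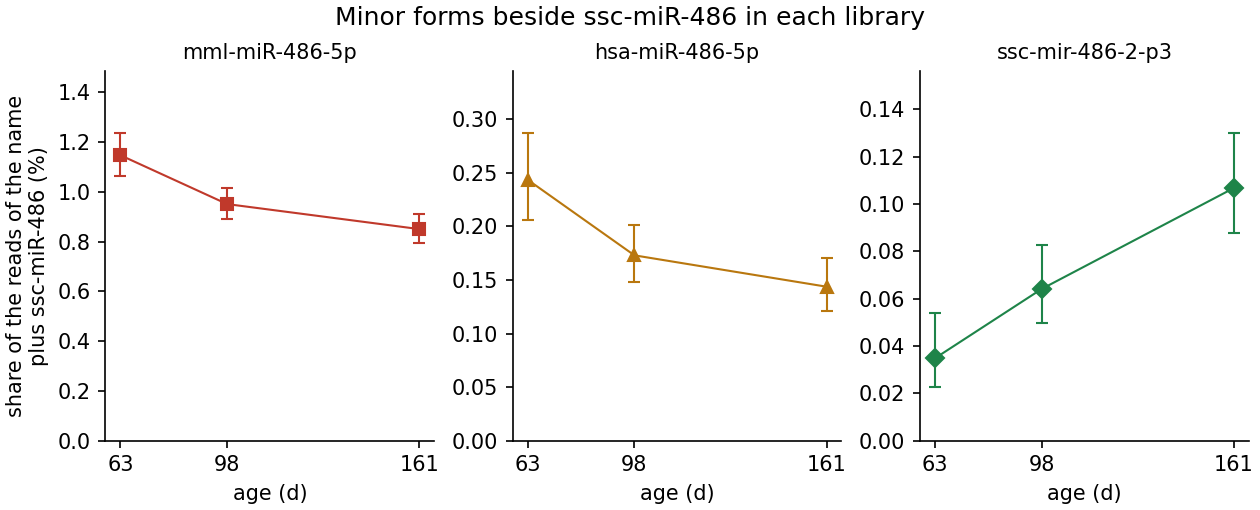
Share of each minor form in its own reads plus those of ssc-miR-486, by age, with 95% Wilson intervals; the y axes start at 0 and differ between panels. mml-miR-486-5p went from 1.15% to 0.850% and hsa-miR-486-5p from 0.243% to 0.144% between 63 and 161 d, while ssc-mir-486-2-p3 went from 0.0348% to 0.107%.

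The files split each value into reads without and with mapping errors, where an error is a base that differs from the reference. This reference was not always the hairpin of the name. All reads of hsa-miR-486-5p had errors at every age, although its representative read matched the human hairpin and differed from the pig hairpin. Of the opposite arm, 85.0%, 88.3% and 80.6% of the reads had errors in order of age. For ssc-miR-486 the split was nearly the same at each age. Reads with errors were 33.9% (33.5 to 34.3), 32.9% (32.6 to 33.3) and 32.5% (32.2 to 32.8) of its reads in order of age. The 22 nt representative read made up 56.1%, 56.0% and 55.8%. The rest, 10.02%, 11.0% and 11.6%, were reads without errors of other ends. Copies of the representative read were 32169, 52424 and 51234.

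This share of reads with errors was high for an abundant miRNA. Among names with at least 1000 reads, the median share was 12.2%, 13.3% and 13.5% of 81, 114 and 97 names in order of age, and ssc-miR-486 ranked 16th, 23rd and 21st from the highest. Among the 10 most abundant names of each library it was 1st at 63 d, 2nd at 98 d and 3rd at 161 d. ssc-miR-1 had the highest share among these 10 at 98 d (95.6%) and at 161 d (94.7%). The files do not say which bases differed in these reads.

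**Figure D3:**
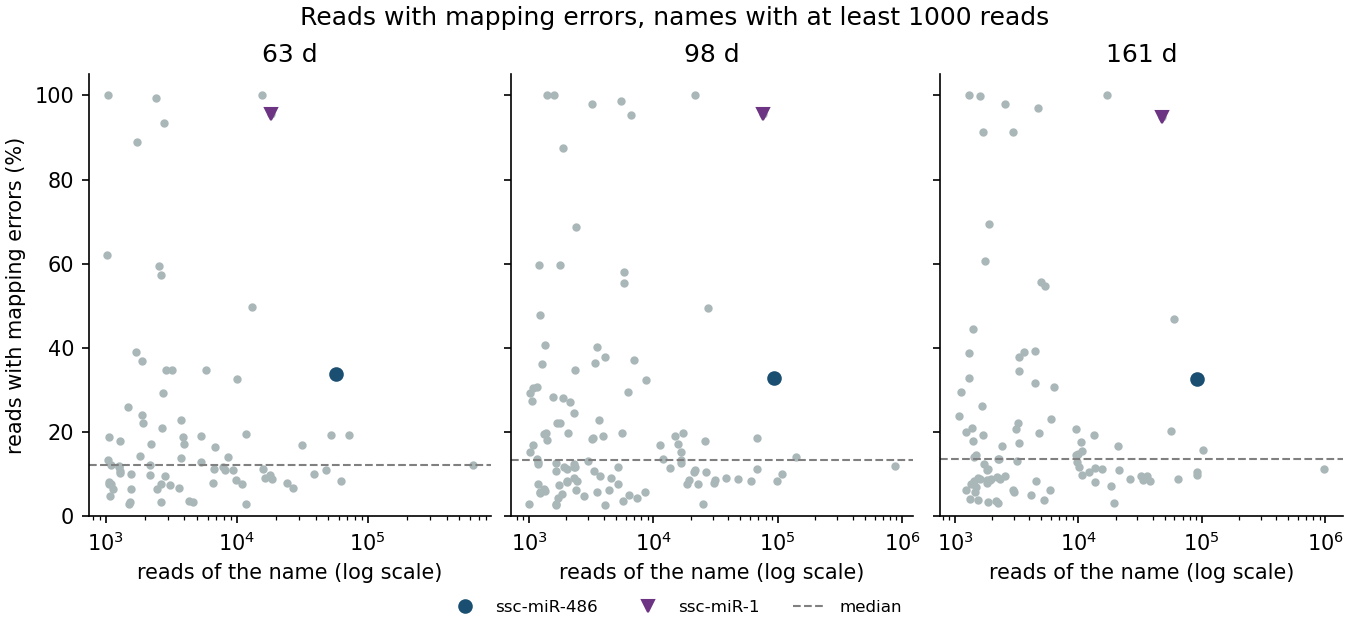
Share of reads with mapping errors against the reads of the name (log scale) for every known name with at least 1000 reads, 1 panel per library; the dashed line is the median. ssc-miR-486 lay at 33.9%, 32.9% and 32.5%, above medians of 12.2%, 13.3% and 13.5%, and ssc-miR-1 lay far higher.

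Under mml-miR-486-5p nearly every read had an error. Reads without errors numbered 6, 2 and 1 at 63, 98 and 161 d, and the share with errors was 99.1%, 99.8% and 99.9%. The representative read itself has 1 error against the macaque hairpin, and its copies are among the reads with errors. The 24 nt read with the TT end had 442, 533 and 402 copies. This was 66.4% (62.7 to 69.9), 59.4% (56.1 to 62.5) and 51.1% (47.6 to 54.6) of the reads of the name in order of age. The 3 intervals did not overlap. The remaining reads with errors were 218, 363 and 384, and apart from the 2 reads of 21 nt at 161 d their sequences are not listed. The name is thus a group of reads of which the TT form was the largest listed. All reads of ssc-miR-486 with errors, 19470, 30818 and 29842, outnumbered those of mml-miR-486-5p by 29.2, 34.3 and 37.9 to 1.

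**Figure D4:**
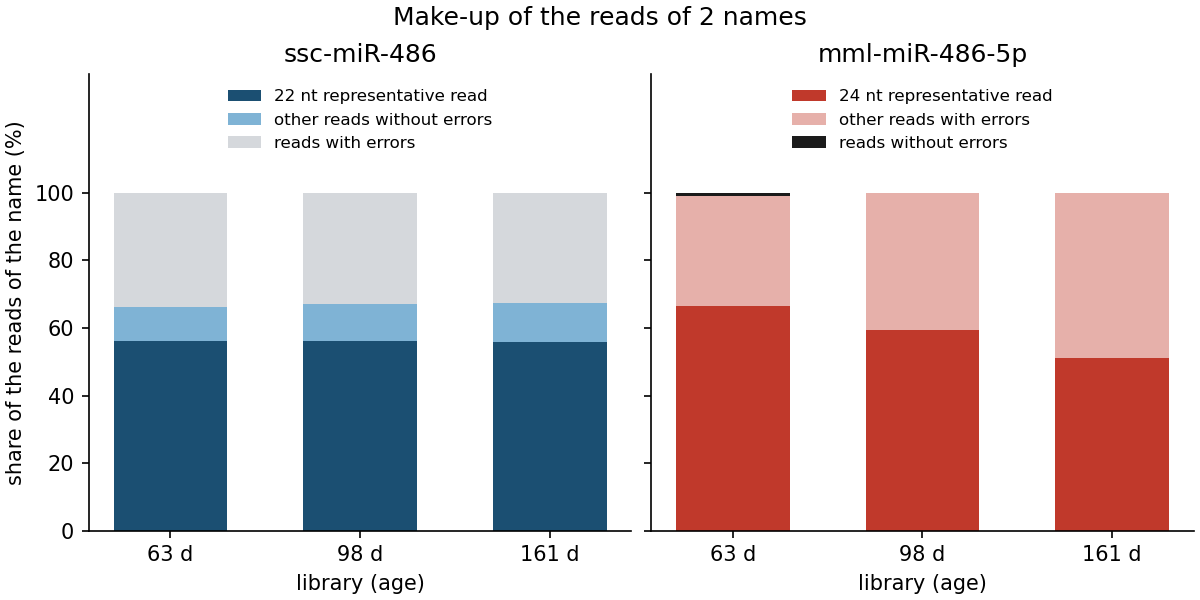
Make-up of the reads of ssc-miR-486 (left) and mml-miR-486-5p (right) in each library, in percent of the reads of the name. The 22 nt read held 56.1%, 56.0% and 55.8% of ssc-miR-486, and the 24 nt read 66.4%, 59.4% and 51.1% of mml-miR-486-5p.

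Other miRNAs also had longer companions under the names of other species. Companions were sought for porcine names with at least 1000 reads in a library. A companion's representative read began with the whole porcine representative read and went on for 1 to 3 bases. There were 12, 20 and 14 companions in the 3 libraries, a comparison chosen after the values were seen. The values below are all reads listed with a companion, not only those with the tail. For mml-miR-486-5p the tailed read had 442, 533 and 402 copies in order of age. mml-miR-486-5p had the 2nd most reads of them in every library. The first was a companion of ssc-miR-378 with 1 added T, with 5690, 5247 and 4359 reads, which was 7.94%, 7.74% and 7.76% of ssc-miR-378. As a percentage of its porcine name mml-miR-486-5p ranked 3rd, 7th and 4th. The companion of ssc-miR-125b with 2 added A had 2.50%, 2.24% and 2.40%. A tail of 2 T was seen with no other porcine name in this set. Between 63 and 161 d the companion of ssc-miR-378 thus went from 7.94% to 7.76% and that of ssc-miR-486 from 1.16% to 0.856%.

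Marker miRNAs of muscle and blood were set beside miR-486 because it is known from both. All 6 numbers of the striated muscle list were found, under 10 porcine names, and their summed level was 450737, 401256 and 466150 RPM. Of its 7 names with enough reads, 2 were past 2-fold higher from 63 to 98 d (ssc-miR-1 at 2.56 and ssc-miR-208b at 2.12), and 1 was past 2-fold lower from 98 to 161 d (ssc-miR-206 at 0.486). Other scalings put ssc-miR-208b at 1.88 to 1.98 from 63 to 98 d, except clean reads, which gave 3.13. Over all 495 names 12.3% were at least 2-fold higher from 63 to 98 d and 15.6% at least 2-fold lower from 98 to 161 d. From 63 to 161 d none of the 7 was past 2-fold, beside 28.5% of all names in either direction. Their median log2 ratio was 0.52, -0.47 and 0.02 in the 3 pairs, beside 0.18, -0.28 and -0.11 over all names. ssc-miR-1, which promotes muscle differentiation, had 12377, 31642 and 21259 RPM, so that for each of its reads there were 3.17, 1.22 and 1.92 of ssc-miR-486. ssc-miR-499-5p and ssc-miR-208b, which are encoded in genes of slow myosin, had 1034, 1685 and 995 and 535, 1136 and 822 RPM. Both were highest at 98 d under every scaling tried, as were ssc-miR-1 and ssc-miR-206. ssc-miR-133b (1324, 1613 and 1400 RPM) was highest at 98 d on this scale and at 161 d with the factors of the study, TMM and median of ratios. Both arms of miR-133a had another order. ssc-miR-133a-3p, which held most of the summed level, had 432681, 361663 and 439710 RPM and was lowest at 98 d, except with clean reads. ssc-miR-133a-5p had 886, 789 and 639 RPM and was highest at 63 d, again except with clean reads. The 3 names of the list with a mean under 10 reads were ssc-miR-499-3p, ssc-mir-133b-p5 and ssc-mir-206-p5, with at most 9 reads each.

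The red blood cell markers ssc-miR-451 and ssc-miR-144 were highest at 98 d under every scaling tried. ssc-miR-451, which is needed for red cells to mature, had 1102, 3304 and 2244 reads, or 752, 1366 and 1001 RPM. ssc-miR-144, cut from a neighbouring hairpin of the same primary transcript, had 55.3, 125 and 68.7 RPM, and its ratio of 2.26 from 63 to 98 d was the only one of the 2 past 2-fold, beside 12.3% of all names. ssc-mir-451-p3 had 0, 5 and 3 reads. The summed level of the list was 808, 1493 and 1071 RPM. For each read of ssc-miR-451 there were 52.1, 28.3 and 40.9 reads of ssc-miR-486. This ratio, which needs no scaling, was lowest at 98 d. In pooled tissue fewer cells of a type and less RNA per cell cannot be told apart, and the part of blood in the reads of miR-486 was not tested.

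The remaining lists stood as follows. The white blood cell list had 3 names of 2 of its 3 numbers, with a summed level of 1096, 1488 and 985 RPM, and no porcine name of miR-223 was listed. A bovine name, bta-miR-223, was listed and had log2 ratios of 0.66, -0.13 and 0.53 in the 3 pairs, but the lists held porcine names only. ssc-miR-150, of lymphocytes, had 464, 435 and 287 RPM, ssc-miR-142-5p 558, 947 and 655, and ssc-miR-142-3p 73.7, 106 and 43.3. From 98 to 161 d ssc-miR-142-3p was past 2-fold lower (0.409), beside 15.6% of all names. With the factors of the study and median of ratios it was at 0.508 and 0.519. Both arms of miR-126, an endothelial miRNA, summed to 5833, 9769 and 6759. The fibroblast list summed to 7703, 9162 and 7593, led by ssc-miR-199a-3p at 6447, 6896 and 6134. Within it ssc-miR-199b-5p was past 2-fold higher from 63 to 98 d (2.11), beside 12.3% of all names, and ssc-miR-199a-5p and ssc-miR-214 were not past it in any pair. With other scalings this ratio of ssc-miR-199b-5p was 1.87 to 1.97, except with clean reads, which gave 3.11. The smooth muscle list differed from these. It summed to 9415, 11874 and 27273, with ssc-miR-143-3p at 8916, 11451 and 26506, ssc-miR-145-5p at 464, 372 and 688, ssc-miR-145-3p at 21.8, 40.1 and 47.3 and ssc-miR-143-5p at 13.0, 10.3 and 32.1. From 63 to 161 d 3 of its 4 names were past 2-fold higher, beside 10.9% of all names, and ssc-miR-486 was at 1.04. From 98 to 161 d ssc-miR-143-3p (2.31) and ssc-miR-143-5p (3.11) were past it, beside 25 of the 495 names. With clean reads ssc-miR-143-3p was at 1.93 in that pair. The 4 names are both arms of miR-143 and of miR-145, so they are not separate observations. At 63 d ssc-miR-143-5p rested on 19 reads and ssc-miR-145-3p on 32.

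**Figure D5:**
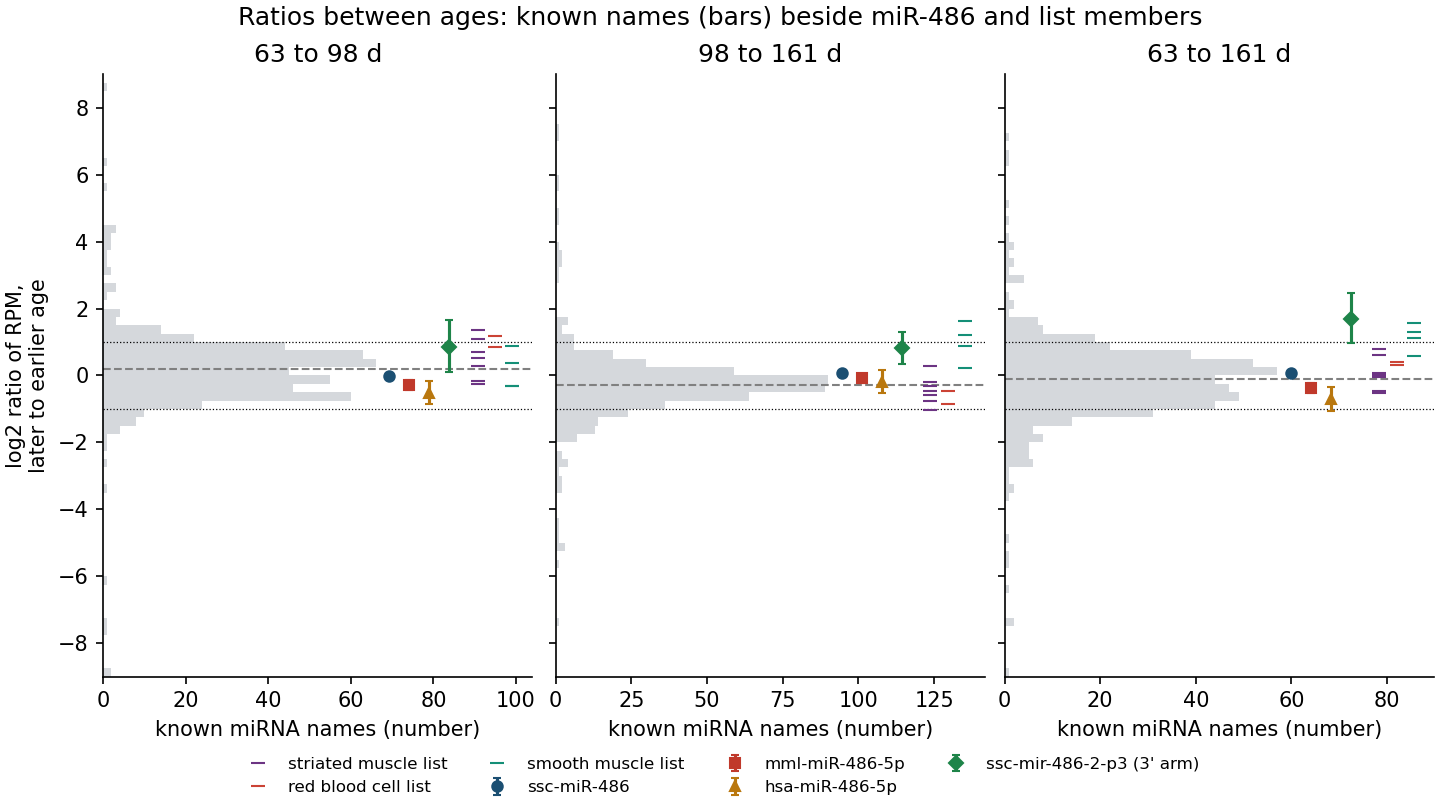
Log2 ratio of RPM between 2 ages, 1 panel per pair: bars count the 495 known names, symbols at the right are the miR-486 names with 95% intervals, and short dashes are list members (their place along the x axis has no meaning). ssc-miR-486 lay at -0.02, 0.08 and 0.06, within the dotted 2-fold lines, while the dashed median of all names lay at 0.18, -0.28 and -0.11, and the opposite arm lay at 1.68 from 63 to 161 d.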

How the data were processed

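Small RNA of 3 libraries, 1 per age and each from pooled RNA of 6 pigs, had been sequenced from TruSeq libraries on an Illumina HiSeq instrument. The authors filtered the reads with ACGT101-miR version 4.2 and mapped them to miRBase hairpins and the pig genome. The deposited expected counts give the reads of every isoform of a hairpin arm, in all and apart for reads with and without mapping errors, and are not normalised. The deposited counts of copies are those of the representative read of an arm.

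A read of several hairpins had been shared out among their lines, since the values of each file sum to a whole number and copies of a representative read exceeded the reads of its own line in 23.3% to 26.1% of the lines of known miRNAs. The reads of a name were therefore summed over all of its lines. This sum settled 164 of 257, 190 of 292 and 191 of 311 such lines in order of age. For the others the copies still exceeded the summed reads, as for mmu-miR-486-5p and cgr-miR-486-5p. Counting 1 hairpin per name, listed first among the planned choices, became an alternative after the files had been seen. Header names of the 98 and 161 d files stand 1 cell to the right of their values and were moved. Blank names in the 63 d file were taken from the line above or from the known miRNA.

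Levels are RPM, reads per 1000000 of the total of a file. Names with a mean of at least 10 reads were compared between ages as ratios, with 0 reads set to 3 counts, and 2-fold was the limit. Without replicates no p-value was computed. Predicted candidates held 0.154% to 0.292% of the reads and were left out. Other scalings were the scaling factors of the study, its clean reads, the total at 1 hairpin per name, TMM (edgeR 4.0.16) and median of ratios (DESeq2 1.42.0), the last 2 on rounded counts. The ratio was tested on simulated data. Python 3.11.15, pandas 2.3.3, scipy 1.17.1 and R 4.3.3 were used.

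Named were all miR-486 names, the list members, the 5 nearest porcine names, the neighbours in rank and names with the same seed. The members and lists were chosen with earlier results of these data known.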

Additional observations from a re-analysis of the deposited data

How the results depend on the processing

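With 1 library per age no replicate could be left out, and no paired analysis was possible because each age had 1 library. Of 120 alternative values, 64 lay within the counting interval of the value given or, for counts, within 1.5 times of it, and 56 did not. Against the total of each file, the log2 ratios of all names shifted in the 3 pairs by -0.12, 0.31 and 0.20 with the factors of the study, 0.56, -0.26 and 0.30 with clean reads, -0.10, 0.04 and -0.06 with the total at 1 hairpin per name, -0.10, 0.25 and 0.15 with TMM and -0.17, 0.34 and 0.17 with median of ratios.

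For ssc-miR-486 the ratio from 63 to 98 d was 0.910 with the scaling factors of the study, 1.45 with clean reads, 0.920 with the total at 1 hairpin per name, 0.922 with TMM, 0.875 with median of ratios and 1.002 with reads without errors. From 98 to 161 d the first 5 gave 1.32, 0.884, 1.09, 1.25 and 1.34. From 63 to 161 d all 6 gave 1.20, 1.28, 0.9998, 1.16, 1.17 and 1.07. For mml-miR-486-5p clean reads gave 1.20, 0.789 and 0.949 in the 3 pairs, median of ratios 0.724, 1.20 and 0.868, and copies of the representative read 0.730, 0.813 and 0.594. The factors of the study gave 1.17 from 98 to 161 d and 0.884 from 63 to 161 d, and TMM 1.12 from 98 to 161 d. Reads without errors were too few for a ratio of this name. Counted at 1 hairpin, mml-miR-486-5p was past 2-fold lower, at 0.408 from 63 to 98 d and 0.385 from 63 to 161 d. This follows from its listing at 1 hairpin at 63 d and at 2 hairpins later, with the reads shared between them.

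The ratio of mml-miR-486-5p to ssc-miR-486 was 0.0158%, 0.00319% and 0.00162% over reads without errors, 1.37% at 63 d and 0.785% at 161 d over copies, and 0.480% at 98 d and 0.428% at 161 d at 1 hairpin. The share of ssc-miR-486 was 1.40%, 2.03% and 1.79% of clean reads and 5.93%, 5.45% and 5.92% of the total at 1 hairpin per name. Names past 2-fold numbered 196 from 63 to 98 d with clean reads, against 92. Without the minimum of 10 reads they numbered 365 of 971, 361 of 977 and 345 of 918 names, against 92, 102 and 141 of 495. In the striated muscle and red blood cell lists, 3, 1 and 0 of 9 names were past 2-fold. Clean reads gave 6, 3 and 1. No minimum gave 6 and 2 of 13 names in the first 2 pairs. The factors of the study, TMM and median of ratios gave 0 from 98 to 161 d. From 63 to 98 d these and the total at 1 hairpin per name gave 2. The opposite arm rested on 20 reads at 63 d, and mmu-miR-486-5p and cgr-miR-486-5p on at most 1 read in a library.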
